A study of Mus musculus with 11 samples.

Results

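The genes described here are 10 transcription regulators and feedback genes of the integrated stress response: Atf4, Atf5, Cebpb, Cebpg, Ddit3, Atf3, Trib3, Chac1, Ppp1r15a and Nupr1. They were chosen by name, and a probe set was taken when the platform annotation gave one of these names as its only symbol. Each gene had 1 such probe set, so the 10 genes are 10 of the 34760 probe sets and 10 of the 19937 genes named on the arrays. All 10 passed the filter on low values.

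The integrated stress response begins when one of several kinases phosphorylates the translation factor eIF2, in answer to amino acid shortage, misfolded protein in the endoplasmic reticulum, double-stranded RNA or heme deficiency. General translation is then reduced while the mRNA of the transcription factor ATF4 is translated more. ATF4, paired with C/EBP proteins, activates genes of amino acid supply and further regulators such as CHOP (the product of Ddit3), ATF3 and TRIB3, and the phosphatase subunit GADD34 (the product of Ppp1r15a) reverses the phosphorylation. The arrays measured RNA and neither translation nor protein.

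RNA was measured in mouse embryonic fibroblasts (MEFs) of mixed C57BL/6 x 129/SvJ background. In all 4 groups both p53 alleles carried a transcriptional stop flanked by loxP sites (p53 LSL/LSL), p53 had been restored with AdenoCre (24 h, multiplicity of infection 5), and doxorubicin, which damages DNA, was present at 150 nM for the last 12 h, from 24 h after transfection. The groups differed in what was transfected. Pint ASO cells (3 arrays) received a pool of antisense oligonucleotides (ASOs) that direct RNase H to the lincRNA Pint, and control ASO cells (2 arrays) received a non-targeting ASO. Cells with p53 siRNA (3 arrays) and control siRNA cells (3 arrays) received siRNA against p53 or a control siRNA. Values are log2 intensities from the Robust Multichip Average (RMA) procedure, so that a difference of 1 is a 2-fold change, and levels are compared only within a probe set.

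The targeted lincRNA (Lncpint) lay between 8.48 and 8.60 in Pint ASO arrays, against 10.23 and 10.41 in control ASO arrays, with 29.2% of its control level left. Lncpint also differed by -0.54 log2 units with p53 siRNA against control siRNA (limma adjusted p = 0.00673). Control ASO arrays stood 0.71 above control siRNA arrays for it (adjusted p = 0.0137), which read 9.43 to 9.88. Trp53 was not analysed here, and its target Mdm2 lay between 11.94 and 12.11 in p53 siRNA arrays, against 12.93 to 12.99 in control siRNA arrays. Over the probe sets tested, arrays of one group correlated at 0.993 to 0.995 and arrays of different groups at 0.983 to 0.993. Of 10 fibroblast markers, 9 exceeded 6 in every array, and Vim and Dcn were at or above 12.92 throughout. Markers of other cell types were mixed. All 4 smooth muscle markers exceeded 6 in every array (Acta2 at 13.81 to 14.09), as did 5 of 6 epithelial markers (Krt19 at 8.50 to 9.31), 4 of 5 endothelial markers and 2 of 6 macrophage and blood markers (Cd68 at 9.35 to 10.49). Ptprc, Adgre1, Epcam and Emcn were below 6 in every array. The summed fibroblast marker level moved with the groups: it was 15.47 to 15.51 with Pint ASO, against 15.79 with control ASO, and 16.04 to 16.06 with p53 siRNA, against 15.84 to 15.87 with control siRNA. With Pint ASO 8 of these 10 markers fell, where 13.9% of all genes did, and with p53 siRNA 6 of 10 rose, where 10.6% of all genes did. The part of this shift in the results on the stress genes was not tested, and in RNA from whole cultures, fewer cells of a type and less RNA per cell cannot be told apart.

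The promoters of these genes are shown because several of them hold a composite element that ATF4 and C/EBP proteins are known to bind together. The search covered 11 windows of 300 bases, from 250 before to 50 after each RefSeq start in GRCm38.p6 (Atf5 has 2 windows), on both strands. The composite TGATGNAA, which joins a C/EBP and an ATF half-site, occurred in 4 of the 11 windows, against 3.97% of 32851 mouse promoter windows of the same length. The cAMP response element TGACGTCA, the full ATF/CREB palindrome, occurred in 1 window, against 1.79% of all. The C/EBP core TTGCNNAA (10.8% of all windows) and the ER stress element, in which CCAAT and CCACG stand apart by a fixed spacer (0.119%), occurred in 0 of the 11. No window matched more than 1 of the motifs, a match is a description of the sequence, and no binding was measured. The 5 windows with a match follow, written 5′ to 3′ on the strand of the gene, with the composite (Atf3, Trib3, Chac1, Nupr1) or the cAMP response element (Ppp1r15a) in capitals.
Atf3, chr1:191183284-191183583, minus strand: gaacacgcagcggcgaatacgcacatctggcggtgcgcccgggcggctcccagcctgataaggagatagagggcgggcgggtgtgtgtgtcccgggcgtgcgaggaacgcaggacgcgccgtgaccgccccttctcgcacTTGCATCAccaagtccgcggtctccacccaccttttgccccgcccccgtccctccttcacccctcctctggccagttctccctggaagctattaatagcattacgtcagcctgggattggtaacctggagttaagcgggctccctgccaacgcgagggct
Trib3, chr2:152344011-152344310, minus strand: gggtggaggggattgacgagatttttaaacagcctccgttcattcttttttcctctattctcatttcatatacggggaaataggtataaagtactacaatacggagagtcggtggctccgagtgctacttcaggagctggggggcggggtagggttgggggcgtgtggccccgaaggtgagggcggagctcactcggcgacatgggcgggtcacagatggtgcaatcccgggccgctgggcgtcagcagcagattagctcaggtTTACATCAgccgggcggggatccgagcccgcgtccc
Chac1, chr2:119350992-119351291, plus strand: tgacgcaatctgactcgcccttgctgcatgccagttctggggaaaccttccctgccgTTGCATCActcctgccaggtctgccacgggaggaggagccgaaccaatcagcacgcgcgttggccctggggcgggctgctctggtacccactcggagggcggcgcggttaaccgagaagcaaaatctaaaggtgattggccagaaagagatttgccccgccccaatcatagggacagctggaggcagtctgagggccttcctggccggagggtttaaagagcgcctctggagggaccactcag
Nupr1, chr7:126625421-126625720, minus strand: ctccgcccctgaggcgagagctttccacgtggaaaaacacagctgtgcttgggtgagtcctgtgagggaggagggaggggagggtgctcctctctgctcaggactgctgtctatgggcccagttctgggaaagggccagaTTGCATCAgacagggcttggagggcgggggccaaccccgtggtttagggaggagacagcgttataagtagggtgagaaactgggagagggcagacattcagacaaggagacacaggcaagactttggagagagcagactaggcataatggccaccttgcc
Ppp1r15a, chr7:45526219-45526518, minus strand: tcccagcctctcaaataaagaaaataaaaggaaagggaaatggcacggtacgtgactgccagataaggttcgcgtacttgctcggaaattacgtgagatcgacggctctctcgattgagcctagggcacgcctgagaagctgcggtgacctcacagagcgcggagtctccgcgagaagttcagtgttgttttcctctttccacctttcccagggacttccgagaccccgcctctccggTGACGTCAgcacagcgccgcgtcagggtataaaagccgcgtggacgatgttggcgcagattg
The composite was read as TTGCATCA, its complement, in Atf3 and Nupr1 at -110 to -103 from the start and in Chac1 at -193 to -186. In Trib3 the letters were TTACATCA, at 15 to 22 after the start. The palindrome of Ppp1r15a lay at -12 to -5.

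With Pint ASO all 10 genes rose. The increases over control ASO ran from 0.26 on the log2 scale in Nupr1 to 0.88 in Ppp1r15a, with a median of 0.44, while the median over all 16147 genes was 0.012. A limma adjusted p under 0.05 over all probe sets was met by 10 of 10 genes in the upward direction, where 8.49% of all 26038 probe sets tested were called higher and 10.7% lower. The arrays of both groups did not overlap for any of the 10, a separation seen upward in 18.2% of all probe sets. The comparison was made to ask what loss of the lincRNA does to gene expression. Pint ASO cells received a pool of ASOs and control ASO cells a non-targeting ASO. In these arrays loss of Pint and other effects of the oligonucleotides cannot be told apart. At B over 3 (the log odds of a difference, the study's threshold), 5 of the 10 were called, against 1.25% of all probe sets in this direction.

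The non-targeting ASO was itself associated with higher levels. Against control siRNA, 8 of the 10 genes were higher with control ASO, where 2.29% of all probe sets were called higher and 1.73% lower, and the median of the 10 was 0.37, beside -0.002 over all genes. The largest difference was in Chac1 (1.01), and Cebpb (0.06) and Nupr1 (0.22) did not pass. The arrays of both control groups did not overlap for any of the 10 genes, upward in each, which held for 16.0% of all probe sets. Only 2 control ASO arrays were available here, while the paper describes microarray analysis in triplicate. Their descriptions number them 2 and 3, and no control ASO array with description number 1 was among the arrays used. Some calls between the controls were lost when either array was left out, a fit with a single control ASO array. The type of oligonucleotide and anything else that differed between the ASO and the siRNA transfections cannot be told apart here. Since the control ASO arrays enter both comparisons, once as the control and once above it, both sets of values are given side by side and are not independent.

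With p53 siRNA the genes divided. Against control siRNA, 4 rose (Atf5, Cebpb, Chac1 and Nupr1), where 7.97% of all probe sets were called higher, and 1 fell (Ppp1r15a), where 8.96% were called lower. The other 5 (Atf4, Cebpg, Ddit3, Atf3 and Trib3) did not pass, and the median of the 10 was 0.14, beside 0.023 over all genes. The question behind this comparison is which transcripts need p53. Arrays did not overlap upward in 6 genes and downward in 1, against 17.1% and 18.6% of all probe sets. The p53 siRNA count was 3 without control siRNA array 2 or array 3 (3451 and 3272 probe sets instead of 4408). No single array left out moved it further.

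**Figure D1:**
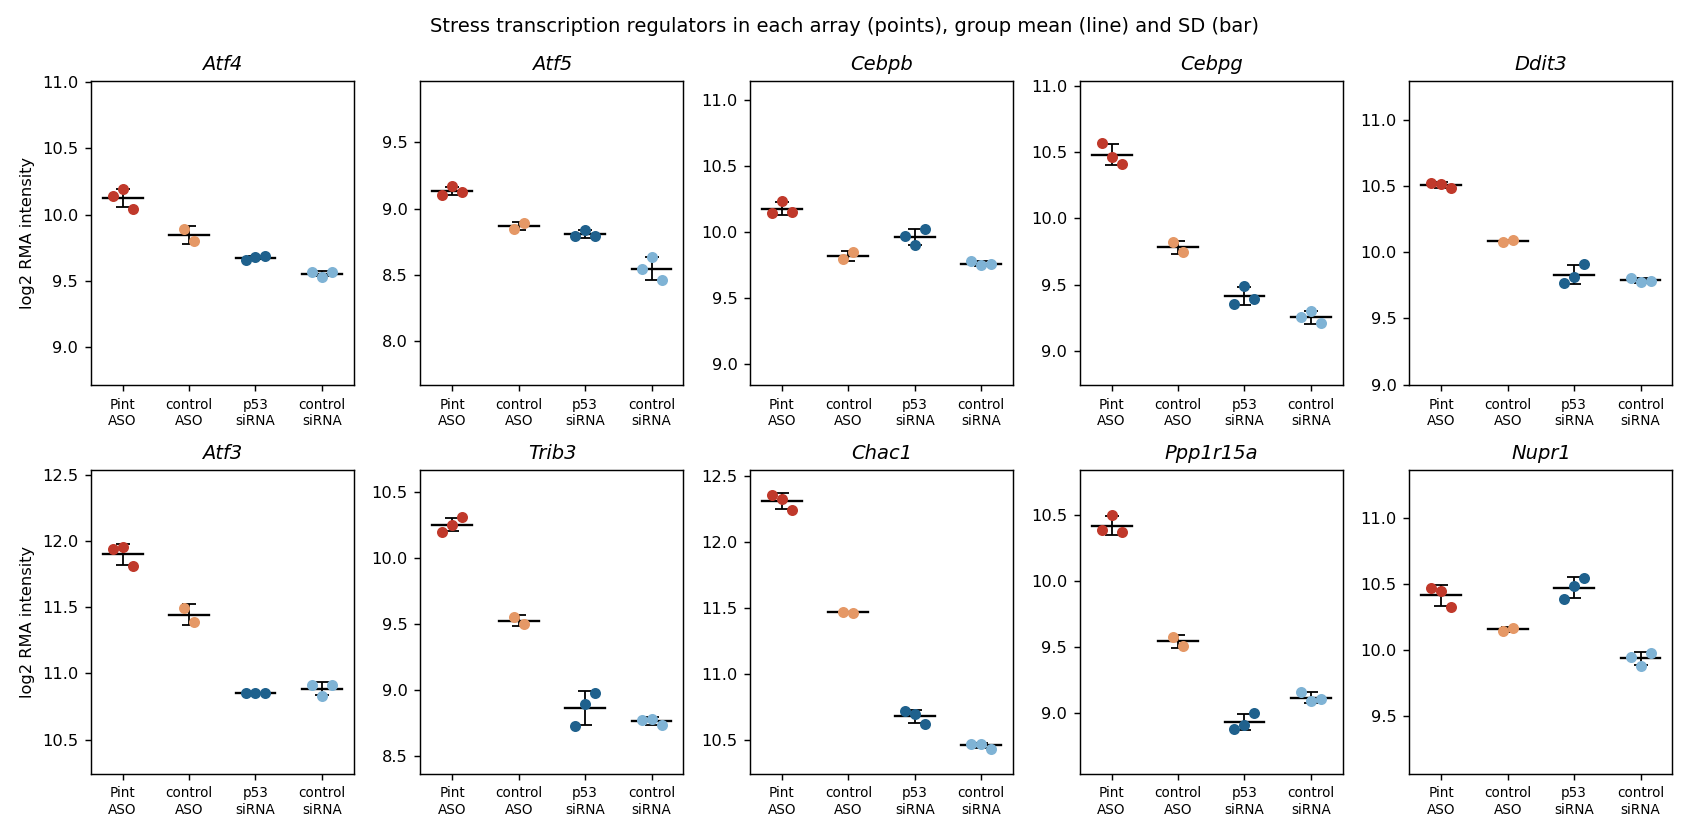
Log2 RMA intensity (vertical axis, each panel spanning the same range of log2 units) of the 10 genes per array (points), with a line at each mean and a bar for the SD ( 2 arrays for control ASO, 3 for the others). Pint ASO arrays lie above control ASO arrays in all 10 panels, and Nupr1 is the panel in which p53 siRNA arrays reach the Pint ASO level.

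Across the 4 groups, Pint ASO held the highest mean for 9 genes and p53 siRNA for 1, Nupr1. Control siRNA held the lowest mean for 8 genes, and p53 siRNA for Atf3 and Ppp1r15a. Of the 30 pairs of neighbouring groups in these orders, 4 had overlapping arrays. These were the 2 siRNA groups for Ddit3, Atf3 and Trib3, and p53 siRNA with Pint ASO for Nupr1.

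Atf4 (probe set 10425364), the central factor of the response, read 10.14, 10.19 and 10.05 in Pint ASO arrays, against 9.89 and 9.80 in control ASO arrays. In the siRNA arrays it read 9.66, 9.68 and 9.68 with p53 siRNA, against 9.57, 9.53 and 9.56 with control siRNA. All 4 groups were separated without overlap, and the steps between them were small. The log2 difference was 0.28 (SE 0.06, adjusted p = 0.00681) for Pint ASO over control ASO, or 1.21-fold, and 0.29 (SE 0.06, adjusted p = 0.0217) for control ASO over control siRNA. For p53 siRNA it was 0.12 (SE 0.05, adjusted p = 0.140). The Pint ASO call was lost without control ASO array 2 (0.23, adjusted p = 0.0565) and with the ASO arrays fitted alone (adjusted p = 0.0938). The control call failed with control ASO array 1 left out (0.24, adjusted p = 0.143) and with control siRNA array 1, 2 or 3 left out (adjusted p = 0.0629, 0.0648 and 0.0699).

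Atf5 (probe set 10562905), a paralog of ATF4 that is likewise translated under eIF2 phosphorylation, read 9.10, 9.17 and 9.12 with Pint ASO, against 8.85 and 8.89 with control ASO. The p53 siRNA arrays read 8.79, 8.84 and 8.79, against 8.54, 8.63 and 8.46 with control siRNA. Each knockdown thus stood above its own control. The increase was 0.26 with Pint ASO (SE 0.06, adjusted p = 0.0113) and 0.26 with p53 siRNA (SE 0.05, adjusted p = 0.00644), and their difference was -0.00 (95% interval -0.17 to 0.17). Control ASO was 0.32 above control siRNA (SE 0.06, adjusted p = 0.0166). The Pint ASO call was lost without control ASO array 1 (0.24, adjusted p = 0.0725) and with the ASO arrays alone (adjusted p = 0.0716). The control call failed when control ASO array 1 or 2 (adjusted p = 0.0784 and 0.0787) or control siRNA array 1 or 3 was left out (adjusted p = 0.0571 and 0.0554).

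Cebpb and Cebpg code for C/EBP proteins, the dimer partners of ATF4 on the composite element. Cebpg (probe set 10562416), whose product lacks an activation domain of its own, read 10.57, 10.46 and 10.41 with Pint ASO, against 9.82 and 9.74 with control ASO. With p53 siRNA it read 9.36, 9.49 and 9.39, against 9.25, 9.30 and 9.21 with control siRNA. The ASO groups lay above both siRNA groups with a wide gap. Cebpg rose by 0.70 with Pint ASO (SE 0.06, adjusted p = 0.000125, 1.63-fold), was 0.53 above control siRNA in the control ASO arrays (SE 0.06, adjusted p = 0.00342), and stood at 0.16 with p53 siRNA (SE 0.06, adjusted p = 0.0994). Cebpb (probe set 10478890), which makes activating and inhibitory isoforms that the array does not distinguish, read 10.14, 10.24 and 10.15 with Pint ASO, against 9.79 and 9.85 with control ASO. The p53 siRNA arrays read 9.97, 9.90 and 10.02, against 9.78, 9.75 and 9.76 with control siRNA. Here the controls lay within 0.06 of each other on average (adjusted p = 0.665), and both knockdowns stood above them. The increases were 0.36 with Pint ASO (SE 0.05, adjusted p = 0.00161) and 0.20 with p53 siRNA (SE 0.05, adjusted p = 0.0170). This p53 siRNA call failed when control siRNA array 2 or 3 was left out (adjusted p = 0.0551 and 0.0562), or p53 siRNA array 3 (0.17, adjusted p = 0.0688).

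Ddit3 (probe set 10366881) codes for CHOP, the pro-apoptotic C/EBP family member induced by ATF4. Its levels were 10.53, 10.52 and 10.49 with Pint ASO, against 10.08 and 10.09 with control ASO. The p53 siRNA arrays read 9.77, 9.82 and 9.91 and overlapped the control siRNA arrays, at 9.81, 9.78 and 9.79. Ddit3 rose by 0.42 with Pint ASO (SE 0.05, adjusted p = 0.000512, 1.34-fold) and stood at 0.04 with p53 siRNA (95% interval -0.06 to 0.14). In control ASO it was 0.30 above control siRNA (SE 0.05, adjusted p = 0.0151), a call that failed when control ASO array 1 or 2 (adjusted p = 0.0817 and 0.0675) or control siRNA array 3 (adjusted p = 0.0576) was left out.

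Atf3 (probe set 10361091) codes for a stress-induced bZIP factor that is also known as a DNA damage response gene. It read 11.94, 11.96 and 11.81 with Pint ASO, against 11.50 and 11.39 with control ASO. The siRNA groups lay lower and overlapped, at 10.86, 10.86 and 10.85 with p53 siRNA, against 10.91, 10.83 and 10.91 with control siRNA. Atf3 rose by 0.46 with Pint ASO (SE 0.06, adjusted p = 0.000845, 1.37-fold) and was 0.56 above control siRNA in the control ASO arrays (SE 0.06, adjusted p = 0.00186). The p53 siRNA difference was -0.03 (95% interval -0.15 to 0.09, adjusted p = 0.764). Its promoter holds the composite element shown above.

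Trib3 and Chac1, each with a composite element in the promoter window, are induced through ATF4 and CHOP. Trib3 (probe set 10488608) codes for a pseudokinase that binds ATF4 and CHOP and restrains them. It read 10.20, 10.25 and 10.31 with Pint ASO, against 9.56 and 9.50 with control ASO. The p53 siRNA arrays spread over 8.73, 8.90 and 8.98, the widest group of any gene here, and overlapped control siRNA at 8.78, 8.78 and 8.74. Trib3 rose by 0.73 with Pint ASO (SE 0.07, adjusted p = 0.000185, 1.66-fold), and control ASO was 0.76 above control siRNA (SE 0.07, adjusted p = 0.000927). With p53 siRNA it stood at 0.10 (SE 0.06, adjusted p = 0.350).

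Chac1 (probe set 10474972) codes for an enzyme that degrades glutathione. It read 12.36, 12.33 and 12.25 with Pint ASO, against 11.47 and 11.46 with control ASO. With p53 siRNA it read 10.72, 10.70 and 10.62, against 10.47, 10.48 and 10.44 with control siRNA. The 4 groups did not overlap, and of the 3 comparisons the widest gap was that of the controls, where Chac1 had rank 17 upward of 16147 genes. That gap was 1.01 (SE 0.05, adjusted p = 3.01e-05, 2.01-fold). The Pint ASO increase over control ASO came to 0.84 (SE 0.05, adjusted p = 1.89e-05, 1.79-fold, rank 63), and the p53 siRNA increase to 0.22 (SE 0.05, adjusted p = 0.0103).

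Ppp1r15a (probe set 10563338) codes for GADD34, which brings protein phosphatase 1 to eIF2 and ends the response. It read 10.39, 10.50 and 10.37 with Pint ASO, against 9.58 and 9.51 with control ASO. With p53 siRNA it read 8.89, 8.91 and 9.01, against 9.16, 9.09 and 9.11 with control siRNA. The gene was thus the only one of the 10 called in opposite directions, up by 0.88 with Pint ASO (SE 0.06, adjusted p = 3.28e-05, 1.83-fold, rank 53) and at -0.19 with p53 siRNA (SE 0.05, adjusted p = 0.0428). Control ASO was 0.43 above control siRNA (SE 0.06, adjusted p = 0.00615), a call lost without control ASO array 1 (0.39, adjusted p = 0.0594). The p53 siRNA call was lost without any one of control siRNA arrays 1, 2 and 3, p53 siRNA arrays 1 and 2, both control ASO arrays and Pint ASO array 1, with adjusted p from 0.0505 to 0.142. After centring each array on its median the difference was -0.16 (adjusted p = 0.104).

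Nupr1 (probe set 10567995) codes for a small stress-induced chromatin protein. It read 10.47, 10.45 and 10.33 with Pint ASO, against 10.14 and 10.17 with control ASO. The p53 siRNA arrays, at 10.39, 10.49 and 10.55, stood well above control siRNA at 9.95, 9.88 and 9.98. Nupr1 was the gene with the largest p53 siRNA increase of the 10, at 0.54 (SE 0.06, adjusted p = 0.000212, 1.45-fold). The Pint ASO increase was 0.26 (SE 0.07, adjusted p = 0.0222), and it was 0.24 without control ASO array 1 and 0.27 without array 2. Its call failed with Pint ASO array 1 or 2 left out (adjusted p = 0.0685 and 0.0593). The call also failed with the ASO arrays fitted alone (adjusted p = 0.102) and with replicate blocks by title or description number (adjusted p = 0.0758 and 0.0599). Control ASO stood 0.22 above control siRNA (SE 0.07, adjusted p = 0.106). Unlike the other 9 genes, Nupr1 was about as high with p53 siRNA as with Pint ASO, and these arrays overlapped.

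**Figure D2:**
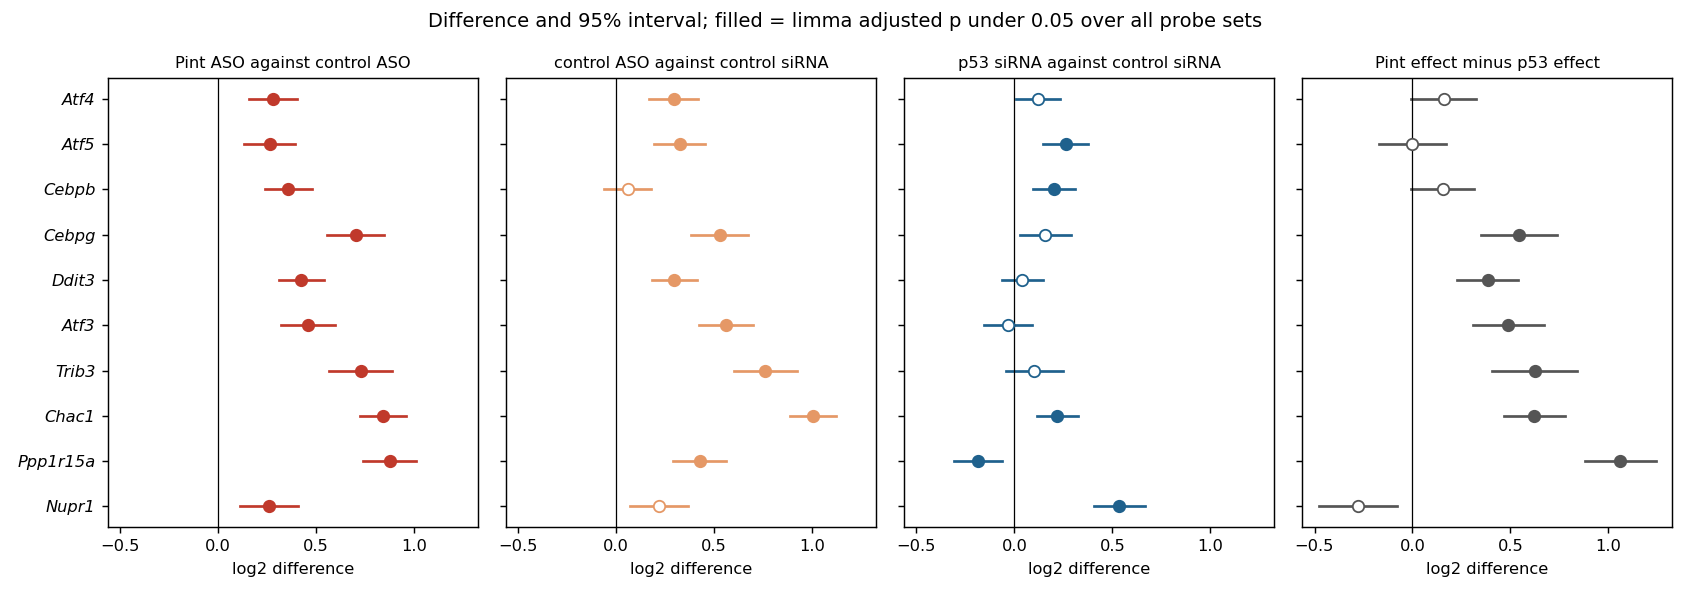
Log2 difference (horizontal axis) with its 95% interval for each gene (rows) in 3 comparisons and in the difference between both knockdown effects. Filled points passed the limma test over all probe sets: 10 with Pint ASO, 8 between the controls, 5 with p53 siRNA and 6 in the difference.

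The test of the difference between both knockdown effects passed for 6 of the 10 genes. The Pint ASO effect minus the p53 siRNA effect was 1.06 for Ppp1r15a (SE 0.08, adjusted p = 3.35e-05), 0.62 for Chac1 (SE 0.07, adjusted p = 0.000286) and 0.62 for Trib3 (SE 0.10, adjusted p = 0.00179). It was 0.54 for Cebpg, 0.49 for Atf3 and 0.38 for Ddit3, with adjusted p of 0.00210, 0.00267 and 0.00394. These 6 passed upward, where 9.15% of all probe sets did (9.40% passed downward). Atf4, Atf5 and Cebpb did not pass, with 95% intervals of -0.01 to 0.33, -0.17 to 0.17 and -0.01 to 0.32. Nupr1 stood at -0.28 (95% interval -0.48 to -0.08, adjusted p = 0.0571), and it passed without p53 siRNA array 1 (-0.32, adjusted p = 0.0364). The 6 differences keep their calls in every fit that leaves out 1 array.

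**Figure D3:**
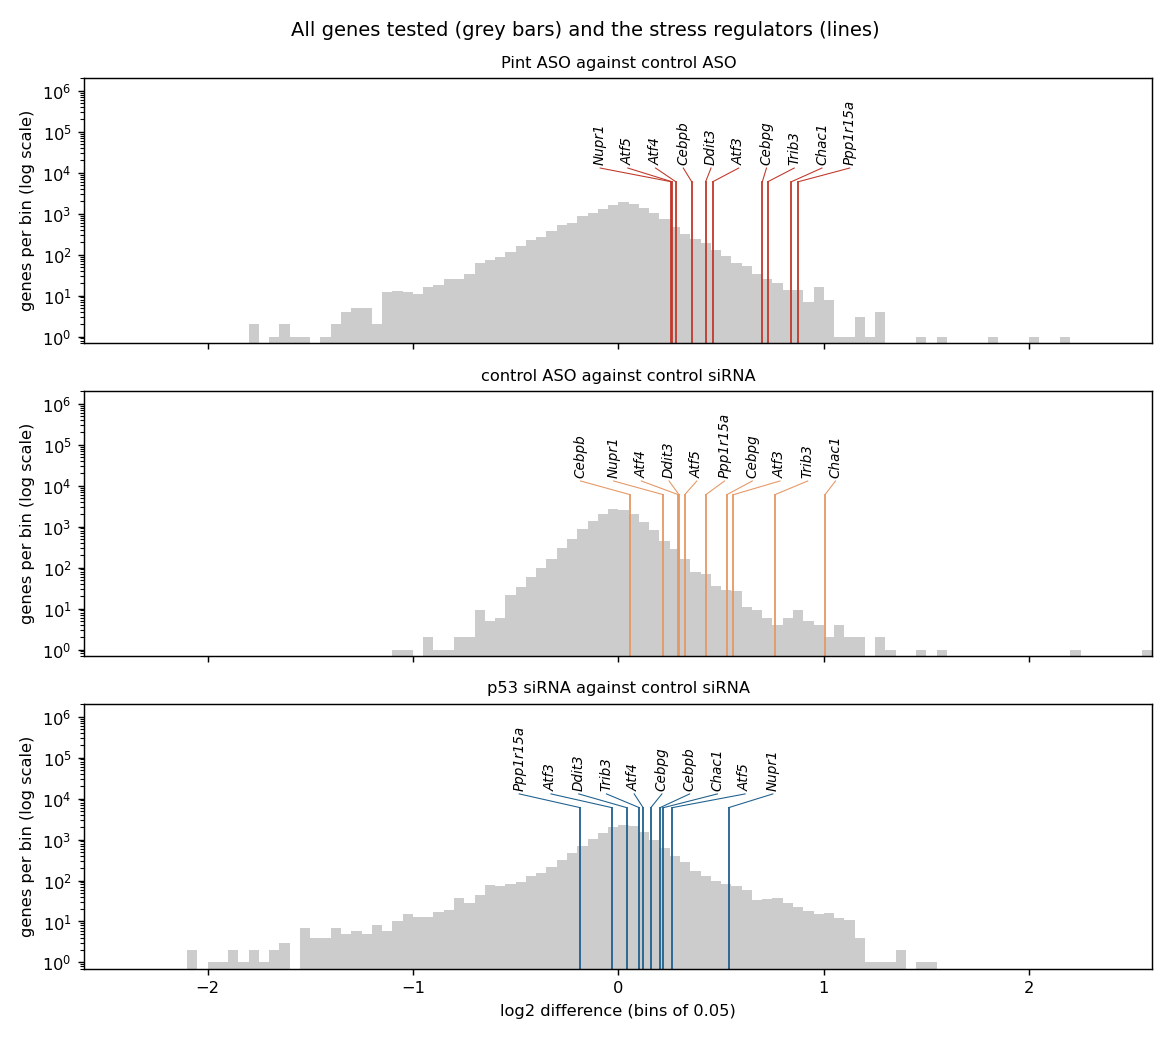
Number of genes (vertical axis, log scale) by log2 difference (horizontal axis, bins of 0.05) for all 16147 genes tested in 3 comparisons, with the 10 stress genes as coloured lines. The outermost bins also hold any value beyond the axis. With Pint ASO the lines run from 0.26 to 0.88, between the controls from 0.06 to 1.01, and with p53 siRNA from -0.19 to 0.54.

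Known target genes of ATF4 and CHOP, chosen with earlier results of these arrays in view, rose with Pint ASO as well. Of 31 tested, 25 rose and 0 fell with Pint ASO, with a median of 0.38, where 11.3% of all genes rose and 13.9% fell. At an unadjusted p under 0.05 the limma counts were 26 higher and 0 lower. The largest increases were in the one-carbon enzyme gene Aldh1l2 (1.16), the cysteine synthesis gene Cth (1.04) and the cationic amino acid transporter genes Slc7a1 (0.93) and Slc7a3 (0.84). Between the controls 15 of 31 were higher with control ASO and 0 lower, with a median of 0.29, where 2.67% of all genes were higher (24 and 0 at an unadjusted p under 0.05). There the largest differences were in Slc7a3 (0.93), the cystine carrier gene Slc7a11 (0.87), the leucine carrier gene Slc7a5 (0.82) and the peptide hormone gene Adm2 (0.78). The count with Pint ASO was 18 without control ASO array 2, and the count between the controls was 7 without control ASO array 1. At B over 3 these counts were 10 with Pint ASO and 6 between the controls. In other settings they were as low as 14 and 12.

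With p53 siRNA the same list moved both ways, with 12 of 31 higher and 4 lower (10.6% of all genes in each direction) and a median of 0.15. Aldh1l2 (0.56), Mthfd2 (0.46), the serine synthesis gene Psat1 (0.38) and Slc7a5 (0.32) rose. Those that fell were Sesn2 and Tnfrsf10b, each by 0.62, Ddit4 by 0.58 and Slc7a11 by 0.40, and Sesn2, Ddit4 and Tnfrsf10b are also known p53-regulated genes. The count of genes higher was 7 with array 3 of either siRNA group left out, 2 at B over 3 and as low as 4 in other settings. The difference between the knockdown effects passed upward in 15 of the 31 and downward in 0, where 11.7% and 12.4% of all genes did (22 and 1 at an unadjusted p under 0.05). It was largest in Sesn2 (1.20), Cth (1.16), Slc7a11 (0.96) and Slc7a1 (0.77). The count of 15 was 8 without control ASO array 2, 4 at B over 3 and as low as 7 in other settings.

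Genes upstream of ATF4 were counted as a pair of lists. Of 8 eIF2 kinases and activators, 2 rose with Pint ASO, where 11.3% of all genes rose and 13.9% fell: Eif2ak4 (0.36), the GCN2 kinase of amino acid shortage, and its activator Gcn1 (0.29). Eif2ak3, the PERK kinase of the endoplasmic reticulum, fell by 0.34, a call lost without control ASO array 1. Of 11 subunits of eIF2, eIF2B and the eIF2 phosphatases, 3 rose, Ppp1r15b (0.54), Eif2b3 (0.32) and Eif2s2 (0.31). The subunit count was 2 without control ASO array 2. At B over 3, 0 genes of either list rose with Pint ASO, and both counts were as low as 0 in other settings. Ppp1r15b codes for the constitutive counterpart of GADD34. With p53 siRNA and between the controls limma called 0 genes of these 2 lists, where 10.6% of all genes were called in each direction with p53 siRNA, and 2.67% higher and 2.14% lower between the controls. At an unadjusted p under 0.05, p53 siRNA gave 2 higher and 3 lower kinase genes and 2 higher and 1 lower subunit genes, and the controls gave 1 and 1 and 2 and 0.

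The IRE1 and ATF6 arm had shares of called genes near those over all genes with Pint ASO, at 12.5% higher and 18.8% lower, beside 11.3% and 13.9%. Of 16 genes of the IRE1 and ATF6 arm of the unfolded protein response, 2 rose with Pint ASO, Herpud1 (0.56) and Ern1 (0.38), which codes for IRE1. Sdf2l1 fell by 0.41, Pdia4 by 0.27 and Hsp90b1 by 0.25, and the median was -0.08. With p53 siRNA 4 rose, Sdf2l1 (0.29), Herpud1 (0.28), Xbp1 (0.20) and Hyou1 (0.17), and Ern1 fell by 0.23, where 10.6% of all genes were called in each direction. The number that rose was 2 with any one of the 6 siRNA arrays left out, and the Ern1 call failed with control siRNA array 2 or 3 or p53 siRNA array 3 left out. At B over 3 the number that rose was 0 with p53 siRNA and 1 with Pint ASO. Between the controls Herpud1 alone passed, at 0.44, where 2.67% of all genes were higher. Herpud1, which serves the removal of misfolded proteins, was the gene of this list that was higher in all 3 comparisons.

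Other bZIP and Tribbles genes moved in both directions. Of 27 tested, 7 rose and 6 fell with Pint ASO (25.9% and 22.2%, beside 11.3% and 13.9% of all genes), with a median of 0.07. Maff (0.39), Cebpa (0.36), Mafk (0.32) and Atf6 (0.30) rose most, and Cebpd (-0.53), Trib2 (-0.50), Creb3l1 (-0.30) and Maf (-0.30) were lowest. The number that rose was 3 without control ASO array 1 or 2, 0 at B over 3 and as low as 0 in other settings. With p53 siRNA Cebpd (0.31), Hlf (0.28), Trib2 (0.26) and Nfil3 (0.18) rose and Tef fell by 0.44, where 10.6% of all genes were called in each direction. The number that rose was 2 without control siRNA array 1 or 3 or p53 siRNA array 2, and 0 at B over 3. The difference between the knockdown effects passed upward in 6 of the 27 and downward in 4, where 11.7% and 12.4% of all genes did. Among those that passed downward were Cebpd at -0.84 and Trib2 at -0.76 (adjusted p = 0.000115 and 0.000254). At B over 3 the upward count was 0 and the downward count 2. Mafg (0.27) was the single gene of the list that passed between the controls, and that call failed with control ASO array 1 or 2 or control siRNA array 1 or 3 left out.

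**Figure D4:**
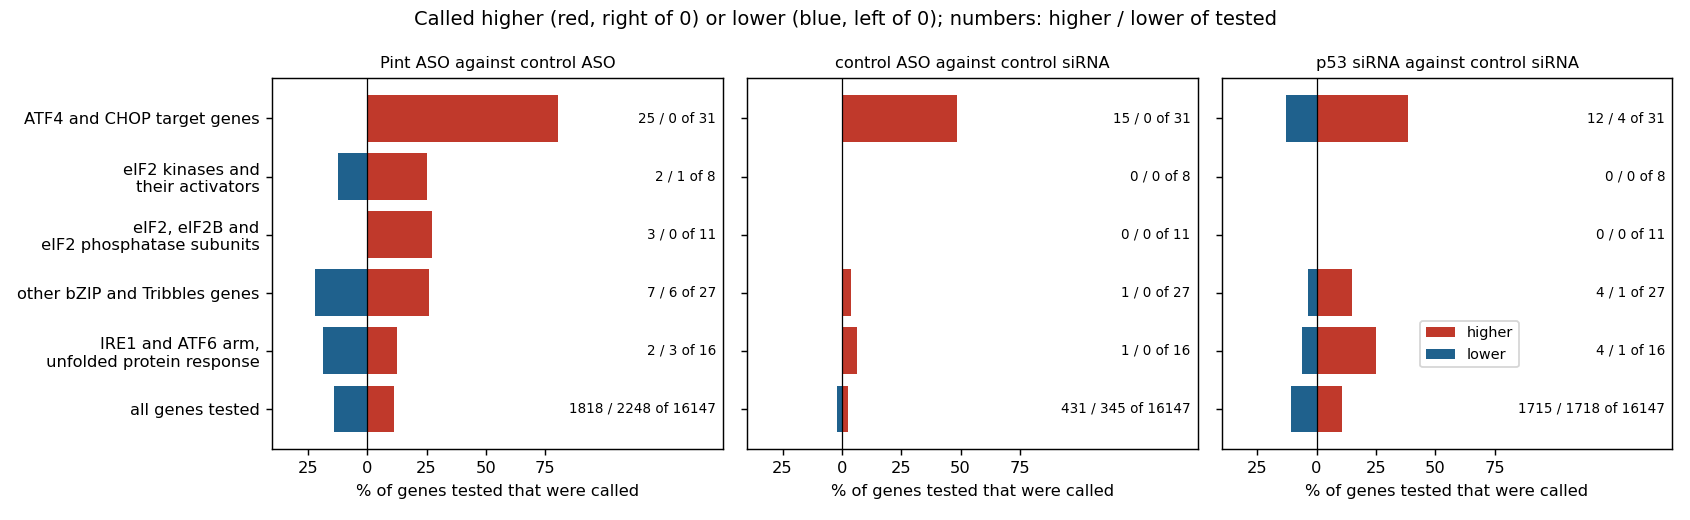
Share of the tested genes of each list (rows) called higher (red, right of 0) or lower (blue, left of 0), in percent, in 3 comparisons, with all genes in the bottom row. For the ATF4 and CHOP targets the counts are 25 higher of 31 with Pint ASO, 15 between the controls and 12, with 4 lower, with p53 siRNA.

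Among themselves, Atf4 and Atf5 had the most alike patterns over the 11 arrays, with a root mean square difference of 0.084 log2 units after each gene's mean was taken away, followed by Atf4 and Ddit3 at 0.096. Chac1 and Nupr1 were the least alike, at 0.686. By the same measure over 16137 other genes, those nearest Atf4 were Mex3d (0.035), Asns (0.037) and Yars (0.041). Asns codes for asparagine synthetase and Yars for a tyrosyl-tRNA synthetase. Nearest Cebpb were Birc3 (0.042), Stc2 (0.044) and Zfp653 (0.050), and nearest Chac1 were Mex3b (0.102), Slc7a3 (0.125) and Mei4 (0.128). Nearest Ppp1r15a were Lonrf1 (0.074), the immediate-early gene Egr1 (0.084) and Tmcc3 (0.090). Of all the nearest genes named in this paragraph, only Asns, Stc2 and Slc7a3 belong to the ATF4 and CHOP target list. Egr1 stood at 0.45 between the controls and -0.23 with p53 siRNA, beside 0.43 and -0.19 for Ppp1r15a. Ankrd52 (0.047), Topors (0.056) and Noc4l (0.062) were nearest Atf5, and Elovl4 (0.073), Tbrg4 (0.073) and Stk40 (0.077) nearest Cebpg. Trim56 (0.039), Nufip1 (0.046) and Tom1 (0.053) were nearest Ddit3, and B4galnt2 (0.058), Gm340 (0.076) and Zbtb11 (0.077) nearest Atf3. Usp31 (0.097), Ifrd1 (0.106) and Snhg17 (0.115) were nearest Trib3, and Susd2 (0.071), Lin54 (0.071) and Parp12 (0.072) nearest Nupr1. These distances are descriptions over arrays that share groups, with genes of small change near each other by size alone.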

How the data were processed

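For each of the 11 arrays the authors labelled 300 ng of total RNA from p53 LSL/LSL MEFs and hybridized it to an Affymetrix array. The main and supplementary methods name different mouse array models. The deposited values are log2 intensities that the authors made with RMA (version not given in the sources used here), and array medians were 7.31 to 7.38. Of 34760 probe sets, 21640 carry 1 gene symbol, 1321 several (used to name none) and 11799 none, and 21553 matched a RefSeq gene table (GRCm38.p6) by Entrez identifier and no symbol changed.

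Groups came from the labels. A probe set was tested where 2 or more arrays of any group had a log2 value over 6 (64 linear). This left 26038, of which 17516 carry 1 symbol, for 16147 genes. A single limma 3.58.1 fit (R 4.3.3) took all 11 arrays (empirical Bayes without trend, two-sided, Benjamini-Hochberg over all probe sets tested, call at 0.05). For a gene with several probe sets the one with the highest mean counted. Background shares of probe sets are over 26038, and those beside the gene lists are over 16147 genes. The fit was tested on simulated data. The small number of arrays sets the precision, and as the labels do not state separate cultures, the spread behind the p-values may be technical.

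The members and gene lists were chosen with earlier results of these data known, so they support nothing independently. Named besides the 10 genes are up to 4 called genes per list, direction and comparison with the largest change. Also named are the 3 nearest genes by pattern for each gene, and Lncpint and Mdm2 as checks. Cdkn1a and Trp53 were not analysed here, since neither has a probe set of its own in the annotation, nor were Eif2s1, Pycr1 and Gdf15. Promoters are RefSeq windows, matched for all 10 genes by symbol. Titles number the control ASO arrays 1 and 2 and descriptions number them 2 and 3, and array numbers in the text follow the titles. Replicate numbers were not taken as pairs: same-number deviations from group means correlated at -0.284, -0.181 and -0.0371 in the siRNA arrays, at -0.0463 and -0.42 in the ASO arrays by title and at 0.42 and 0.375 by description. Alternatives covered the filter, normalization, unnamed probe sets, variance prior, array weights, each arm alone, replicate blocks, B over 3, averaging of probe sets and leaving out each array.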

Additional observations from a re-analysis of the deposited data

Results flagged for a closer look

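The effect of Pint ASO over control ASO differed from the effect of p53 siRNA over control siRNA, by the interaction term of the limma fit, in 6 of the 10 genes. The difference was 1.06 log2 units in Ppp1r15a (adjusted p = 3.35e-05), 0.62 in Chac1 (0.000286), 0.62 in Trib3 (0.00179), 0.54 in Cebpg (0.00210), 0.49 in Atf3 (0.00267) and 0.38 in Ddit3 (0.00394), each larger with Pint ASO. The test compares effects measured against different controls, and all 6 genes also passed between the controls, with control ASO above control siRNA by 0.43 in Ppp1r15a, 1.01 in Chac1, 0.76 in Trib3, 0.53 in Cebpg, 0.56 in Atf3 and 0.30 in Ddit3. The part of the baseline in the difference was not tested. Within-arm replicate blocks by title or description number, chosen after seeing the data, ended the Ddit3 call (adjusted p = 0.0715 and 0.0513).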

How the results depend on the processing

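The number of the 10 genes called with Pint ASO was 8 to 10 when single arrays were left out, 7 with the ASO arrays fitted alone (1890 probe sets called instead of 4985) and 5 at B over 3. With p53 siRNA it was 5, and 3 to 5 without single arrays. It was 3 with a replicate block by title number (3422 probe sets instead of 4408) and 1 at B over 3. With a block within each arm, chosen after seeing the data, it was 1 by title (2285 probe sets instead of 4408) and 3 by description. Between the controls it was 8, and 4 to 8 without single arrays, 5 with the replicate block by either numbering (371 and 465 probe sets instead of 1046) and 4 at B over 3. The difference between the effects was called for 6 genes, and 6 to 7 without single arrays, 2 at B over 3 and 5 with either within-arm block (1927 and 3058 probe sets instead of 4830). With Pint ASO the within-arm blocks called 7 and 8 (1311 and 2604 probe sets). At B over 3 the probe sets called were 812 with Pint ASO, 1021 with p53 siRNA, 155 between the controls and 941 for the difference. Between the controls 294 probe sets were called without control ASO array 1, 637 without array 2, and 438, 563 and 429 without control siRNA array 1, 2 and 3. The difference of Atf5, at -0.00, turned to 0.02 and 0.01 with the blocks by title and description, to 0.00 and 0.02 with the within-arm blocks, and lay between -0.04 and 0.04 without single arrays, with an adjusted p of at least 0.776. The cause of these changes was not tested. Nupr1 passed that difference after repeated quantile normalization, without the unnamed probe sets and with a variance trend (adjusted p = 0.0263, 0.0421 and 0.0344). With repeated quantile normalization Atf4 and Cebpg also passed with p53 siRNA (adjusted p = 0.0395 and 0.0474). No direction of a called gene turned in any of these settings. Few arrays limit every call.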
